A study of Mus musculus with 6 samples.

Results

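Gained regions inside genes are stretches of open chromatin that were called in insulin-producing β-cells of the pancreatic islet after knockout of Chd4, and that lay within protein-coding genes away from their ends. The assay was ATAC-seq, whose Tn5 transposase inserts adapters into accessible DNA, and a separate peak list was deposited for each library. Peaks of all 6 lists that shared at least 1 bp were joined into 156745 regions. A region was kept if it was autosomal, had a peak in each of the 3 Chd4 knockout lists and in none of the 3 control lists, overlapped the span of a RefSeq protein-coding gene (GRCm38.p6, the assembly that mm10 names) and lay more than 1 kb from both ends of every span. This left 7181 regions, 4.58% of all regions, 44.3% of the 16193 regions called only in the 3 knockout lists, and 9.48% of the 75725 autosomal regions inside genes. Presence and absence of peaks chose them, so their peak values in the knockout lists, and their absence from the control lists, are given as a description.

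The genotype label Chd4KO marks 3 libraries, and their mice are called Chd4Db in the series design. The other 3 libraries are labelled Control. Both groups came from mice given tamoxifen, and the Tomato-positive mature β-cells of their dispersed islets were isolated by flow cytometry. Not given in the sources used here are the alleles, the Cre driver, the strain, age and sex of the mice and the time after tamoxifen. Whether replicate libraries came from separate mice is not stated either, so p-values measure only how these libraries vary, and that variation may be technical.

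Chd4 is the ATP-dependent helicase of NuRD, a complex that couples nucleosome remodelling with histone deacetylation and is known for closing enhancers and silencing genes of other lineages. Accessible sites within genes, most often in introns, commonly act as enhancers of their host gene or of a neighbour, and some are start sites of alternative transcripts or of non-coding RNAs. A peak shows where DNA was accessible, not what the site does.

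The knockout lists held 119088 to 124125 peaks and the control lists 100109 to 110693, so more was called in every knockout library. The lists hold no read counts, and the depth of each library is unknown. The Jaccard index of called regions was 0.785 to 0.825 between libraries of 1 genotype and 0.626 to 0.647 between genotypes. The β-cell label was checked at annotated starts. A peak of all 6 lists met the start window of 19 of 22 β-cell transcription factor genes and 23 of 25 insulin secretion genes, against 62.5% of all autosomal protein-coding genes. Such shares are not particular to β-cell genes, since 13 of 13 respiratory chain and 11 of 11 NuRD genes were met too. For β-cell maturation it was 6 of 8 genes, and for genes that β-cells keep silent 11 of 16. The windows of Ins1, Pdx1, Nkx6-1 and Ucn3 were met in 6 lists and that of Slc2a2 in 5, whereas those of Gcg, Ppy, Cpa1, Prss1, Cela1, Ptprc and Alb were met in 0, and that of Sst in 2. Of marker lists for other cells, windows were met in all 6 lists for 4 of 7 glucagon cell, 5 of 11 somatostatin, PP and ghrelin cell, 5 of 9 duct, 4 of 8 endothelial and 7 of 15 striated muscle genes. The same held for 2 of 14 acinar, 3 of 9 macrophage and leukocyte, 2 of 11 mesenchymal, 1 of 3 Schwann cell and 3 of 15 hepatocyte genes. Chd4 itself (chr6:125095980-125130591) held 0 gained regions and 1 region called in all 6 libraries, and peaks do not check a deletion of exons.

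Few of the gained regions lay at an annotated start. Of the 7181, 57 (0.794%) met a window of 300 bases around a RefSeq transcription start, 64 windows in all, and 23 held a whole window. In 22 the window was a start of the host gene itself, and in 37 it belonged to a long non-coding RNA gene. The following windows are shown because each lay whole within a gained region. They are 4 protein-coding and 2 long non-coding starts, taken by the rank of the region in its weakest knockout list. Sequences are from RefSeq (GRCm38.p6), read 5′ to 3′ on the strand of the transcript, and capitals mark matches, on either strand, to the TATA box spelled as TATAAA, the CCAAT box, the GC box spelled as GGGCGG, the E-box spelled as CAGNTG, the AP-1 site spelled as TGANTCA or the forkhead site spelled as TGTTTAC.
Ccdc116: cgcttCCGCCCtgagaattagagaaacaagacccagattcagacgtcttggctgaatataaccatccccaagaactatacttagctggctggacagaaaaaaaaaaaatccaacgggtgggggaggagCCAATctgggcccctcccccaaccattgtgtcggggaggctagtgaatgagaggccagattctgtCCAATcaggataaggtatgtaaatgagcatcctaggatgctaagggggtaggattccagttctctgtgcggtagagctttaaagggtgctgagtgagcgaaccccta
Gramd2: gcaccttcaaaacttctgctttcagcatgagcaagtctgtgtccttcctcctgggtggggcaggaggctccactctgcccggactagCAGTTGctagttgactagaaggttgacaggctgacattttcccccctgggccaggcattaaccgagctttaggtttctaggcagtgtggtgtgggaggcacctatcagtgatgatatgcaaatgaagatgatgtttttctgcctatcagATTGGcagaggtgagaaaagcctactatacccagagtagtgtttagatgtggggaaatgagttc
Gpx6: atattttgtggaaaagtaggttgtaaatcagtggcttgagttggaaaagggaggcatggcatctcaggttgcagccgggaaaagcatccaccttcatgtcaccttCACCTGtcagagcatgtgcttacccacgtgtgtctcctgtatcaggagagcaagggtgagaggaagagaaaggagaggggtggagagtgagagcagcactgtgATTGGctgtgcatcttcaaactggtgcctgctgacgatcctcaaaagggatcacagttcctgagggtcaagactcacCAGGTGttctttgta
Sh2d6: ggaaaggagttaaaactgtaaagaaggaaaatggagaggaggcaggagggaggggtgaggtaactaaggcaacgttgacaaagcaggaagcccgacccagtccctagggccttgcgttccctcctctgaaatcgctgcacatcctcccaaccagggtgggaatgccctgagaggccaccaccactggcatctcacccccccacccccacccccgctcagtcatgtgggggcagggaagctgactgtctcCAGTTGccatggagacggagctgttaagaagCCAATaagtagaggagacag
Gm30842: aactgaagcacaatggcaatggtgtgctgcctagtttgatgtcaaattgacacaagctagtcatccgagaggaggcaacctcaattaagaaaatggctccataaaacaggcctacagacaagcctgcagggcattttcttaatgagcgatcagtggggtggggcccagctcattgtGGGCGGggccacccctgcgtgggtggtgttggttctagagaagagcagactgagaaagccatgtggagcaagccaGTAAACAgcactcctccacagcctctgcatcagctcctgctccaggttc
Gm13544: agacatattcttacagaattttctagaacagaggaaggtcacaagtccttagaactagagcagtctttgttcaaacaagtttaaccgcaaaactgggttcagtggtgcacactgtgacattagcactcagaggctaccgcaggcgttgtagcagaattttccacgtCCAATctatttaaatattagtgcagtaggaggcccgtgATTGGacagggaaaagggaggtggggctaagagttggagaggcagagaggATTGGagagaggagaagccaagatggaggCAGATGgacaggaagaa

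The window of Ccdc116, a coiled-coil gene, lies at chr16:17144397-17144696 on the minus strand, and its region (chr16:17144304-17144720) had peaks of 381, 410 and 399 bp in knockout libraries 1 to 3. It has 2 CCAAT boxes and 1 GC box. The window of Gramd2 (chr9:59707514-59707813, plus strand) lay under peaks of 409, 495 and 376 bp. That of Gpx6, a glutathione peroxidase gene (chr13:21311953-21312252, plus strand), has 2 E-boxes and lay under peaks of 579, 678 and 681 bp. The window of Sh2d6, which encodes an SH2 domain protein (chr6:72519987-72520286, minus strand), lay under peaks of 506, 815 and 607 bp. All 4 are further starts inside a span that begins or ends elsewhere, since every region lay over 1 kb from the ends of its gene. The non-coding Gm30842 (chr6:121137237-121137536, plus strand) starts inside Mical3, a gene of the MICAL family of actin-regulating oxidoreductases, and its window holds 1 forkhead site and 1 GC box. The non-coding Gm13544 (chr2:58276529-58276828, plus strand) starts inside Acvr1c, which encodes an activin and Nodal receptor of the TGF-β family, and its window holds 3 CCAAT boxes and 1 E-box.

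Over all 64 windows met by a gained region, a TATA box was found in 17.2%, a CCAAT box in 40.6%, a GC box in 15.6%, an E-box in 64.1%, an AP-1 site in 12.5% and a forkhead site in 7.81%. Among the 6181 windows that lie inside genes by the same rule, the shares were 12.7%, 33.6%, 27.6%, 56.4%, 8.25% and 3.74%. Among all 32851 windows of the same length they were 13.6%, 37.4%, 35.7%, 51.4%, 7.81% and 3.65%. The windows in gained regions thus held a GC box less often than both sets, and every other listed site more often. The counts were as low as 10 windows for the GC box and 5 for the forkhead site, and were not tested. The sets also differ in their mix of protein-coding and long non-coding starts. Their median GC content was 50.3%, against 51.7% and 52.7%. Of the 3465 protein-coding windows inside genes, a gained region met 23 (0.664%), a region lost in the knockout met 5, and a region shared by all 6 libraries met 49.3%. Of the 2716 long non-coding windows, a gained region met 40 (1.47%), a lost region met 8 and a shared region 17.8%. No peak of any list met 44.2% of the protein-coding and 76.6% of the non-coding windows. The other gained regions met no start window in the table, which does not hold every transcript. Their distance to starts was not measured. A gained region overlapped the span of a long non-coding RNA gene in 399 cases (5.56%), against 5.19% of lost and 6.48% of shared regions inside genes.

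Peaks of the gained regions were narrow and of low to middle rank. Their median width was 322 bp in knockout library 1, 330 bp in library 2 and 319 bp in library 3. Their median −log10 q, the authors' significance per peak, was 23.8, 24.98 and 19.1, which put the median peak at the percentiles 34.4, 34.8 and 30.9 of its own list. The median fold enrichment at the summit, also the authors' value, was 6.26, 6.33 and 5.15. Shared regions inside genes had median widths of 582, 597 and 568 bp in the same lists and median percentiles of 61.4, 62.2 and 59.5. Gained regions between genes were close to those inside, with medians of 325, 334 and 333 bp and percentiles of 36.4, 37.3 and 35.3. Mixed regions inside genes, called in 3 libraries of both genotypes, ranked lower, at percentiles of 10.1, 11.2 and 9.65. Together the gained regions inside genes held 5.87%, 5.79% and 6.04% of the peaks of knockout lists 1 to 3, and 3.86%, 3.88% and 3.91% of the bases under peaks.

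**Figure D1:**
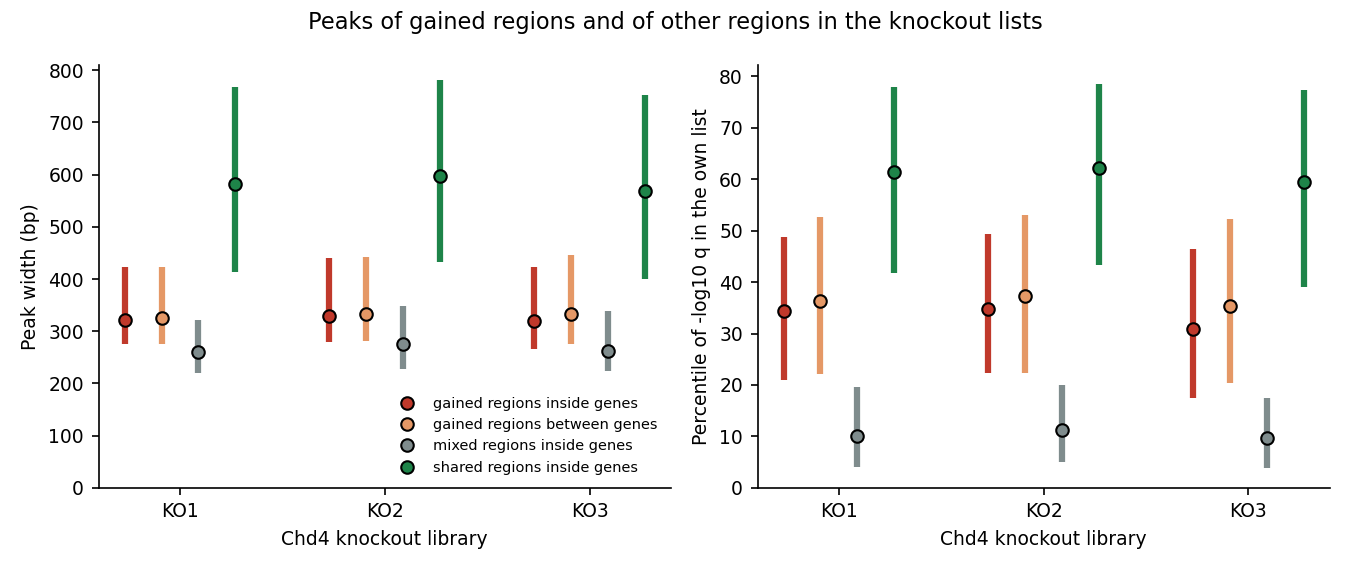
Width in bp (left) and percentile of −log10 q within the own list (right) of peaks in the 3 Chd4 knockout lists, for gained regions inside genes, gained regions between genes, mixed regions inside genes and shared regions inside genes. Points are medians and bars the quartiles over regions. Gained regions inside and between genes lie close together, above mixed and below shared regions, as in library 1 with percentiles of 34.4, 36.4, 10.1 and 61.4.

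The 3 knockout lists placed the same site at a similar rank. The outermost summits of a region were a median of 23 bp apart, with quartiles of 11 and 43 bp. They lay within 50 bp of each other in 5781 regions (80.5%) and over 200 bp apart in 128 (1.78%). The percentile of a region differed by a median of 13.9 points between its highest and its lowest list, with quartiles of 8.44 and 20.5. Knockout library 3 gave the lowest of the 3 percentiles for 3339 regions (46.5%). The weakest knockout peak had a −log10 q under 5 in 409 regions (5.70%) and of at least 50 in 904 (12.6%), so both marginal and strong calls are among them.

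Next to the limit of 1 kb from a gene end, regions were as follows. Just inside it lay regions in Slc22a3, an organic cation transporter gene, at 1002 bp, in the Fanconi anaemia gene Fancd2 at 1004 bp and in D7Ertd443e at 1005 bp. Just outside lay regions in Arhgef19 at 999 bp, in Rsu1 at 994 bp and in Ccdc167 at 976 bp. The calls have neighbours too: 3761 regions inside genes had a peak in 2 knockout lists and no control list, and 2472 had one in all 3 knockout lists and in 1 control list.

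The same pattern was looked at in libraries whose calls took no part in choosing the regions. The regions were still those joined from all 6 lists, so peaks of the held-out libraries helped to set their bounds. For each of the 9 pairs of a knockout and a control library, regions inside genes were chosen from the other 4 lists as called in both knockout and in neither control list, which gave 8462 to 10895 regions. The knockout library left out of the choice had a peak in a median of 88.4% of them (range 78.0% to 90.9%), and the control library left out in a median of 7.495% (range 6.15% to 16.0%). In every pair the held-out knockout share was above the held-out control share. The lowest knockout shares came with library 3 held out (78.0% to 78.5%), and the highest control shares with control library 2, the longest control list (15.1% to 16.0%). With only the 50000 strongest peaks of each list the medians were 89.4% in the held-out knockout library and 8.83% in the held-out control library. These shares were not tested, since the pairs reuse the same 6 libraries.

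**Figure D2:**
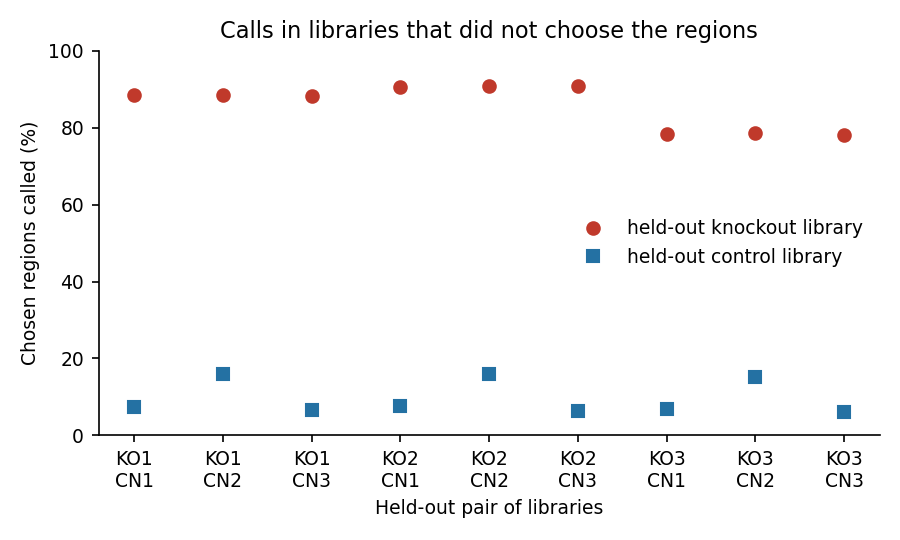
Share of chosen regions inside genes with a peak in the held-out knockout library (circles) and in the held-out control library (squares), in percent, for each of the 9 pairs of held-out libraries. The knockout shares lie between 78.0% and 90.9% and the control shares between 6.15% and 16.0%.

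Inside genes 2410 autosomal regions were lost, that is called in all 3 control lists and no knockout list, so 2.98 regions were gained for each lost one, against 5.72 between genes. With the 50000 strongest peaks of each list, which makes the lists equally long and also drops the weaker peaks, 2544 regions were gained and 2361 lost inside genes, a ratio of 1.08. That set overlapped 644 (8.97%) of the 7181 regions, and 25.3% of the set were overlapped in turn. Absence of a region from the control lists is therefore absence at the calling threshold of the deposited lists.

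The 10 strongest members were wider than the median member. The region that ranked highest in its weakest knockout list lay in Aff3, a nuclear protein gene of the AF4/FMR2 family (chr1:38430280-38430781), with peaks of 485, 498 and 485 bp and summit folds of 33.3, 32.1 and 31.6 in knockout libraries 1 to 3. It stood at percentiles of 97.0, 97.8 and 97.7 in these lists, and no control list held a peak there. Next came a region in Lrfn2, which encodes a synaptic adhesion protein (chr17:49029538-49030371), with peaks of 676, 737 and 773 bp and folds of 29.1, 27.7 and 24.3. The third was in Casz1, a zinc finger transcription factor gene (chr4:148830117-148830777), with folds of 24.6, 21.0 and 22.7. All 3 stood at a percentile of at least 95.7 in every knockout list.

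A region in Negr1, a neuronal adhesion gene of the IgLON family (chr3:157013258-157013846), had the highest folds of these leading members, at 39.1, 38.2 and 37.3 in knockout libraries 1 to 3. One in Kcnma1, which encodes the pore of the BK potassium channel (chr14:23340439-23341016), had folds of 36.9, 35.4 and 33.9. One in Cacng8, an auxiliary subunit gene of AMPA receptors (chr7:3411135-3411716), had folds of 19.8, 19.4 and 21.3. These 3 host genes act in neurons, and Kcnma1 also in other excitable cells. Flnc, the filamin of striated muscle (chr6:29449878-29450300), had folds of 35.4, 34.7 and 31.1. The other leading regions lay in Asphd2, at 1595 bp from its end, in the pyrophosphate transporter gene Ank and in the kinase gene Lrrk1, whose peak ranked at percentiles of 99.2, 97.7 and 94.0.

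The widest members were a different set. In Nuggc (chr14:65624080-65626102) the peaks were 1907, 1956 and 1620 bp wide in knockout libraries 1 to 3. In Mad1l1, a gene of the mitotic checkpoint (chr5:140264983-140266189), they were 1207, 1188 and 673 bp. In Plekhh2 (chr17:84564122-84565321) they were 1181, 1195 and 1160 bp. The Mad1l1 peak thus varied most between these lists and the Plekhh2 peak least. A region in Abca13, an ABC transporter gene (chr11:9578153-9579301), had peaks of 1054, 1005 and 1149 bp. One in Prdm14, a regulator of germ cells and of pluripotent cells (chr1:13117835-13118898), had peaks of 1029, 1064 and 773 bp. These 5 stood at percentiles between 49.2 and 89.9 in the knockout lists.

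The 7181 regions lay in 4246 of the 20665 autosomal protein-coding genes (20.5%). Of these host genes 2732 held 1 region, 854 held 2, 538 held 3 to 5 and 122 held 6 or more, and the last group had 894 regions. Hosts were long, with a median span of 71.5 kb against 12.3 kb for the other genes. The share of genes that were hosts was 1.62% up to 10 kb, 14.0% from 10 to 30 kb, 33.7% from 30 to 100 kb, 65.5% from 100 to 300 kb and 86.1% above 300 kb. Per Mb of span the density was 3.99, 8.29, 8.17, 7.93 and 5.76 regions in the same classes, so beyond 10 kb it did not grow with length. A region lost in the knockout lay in 1016 hosts (23.9%), and 782 hosts (18.4%) held no shared region inside. Almost all regions (7131) lay in 1 span. The 2 that lay in over 20 spans were in the clustered protocadherin locus, where many spans overlap, so 19 clustered protocadherin genes count as hosts through 2 regions.

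**Figure D3:**
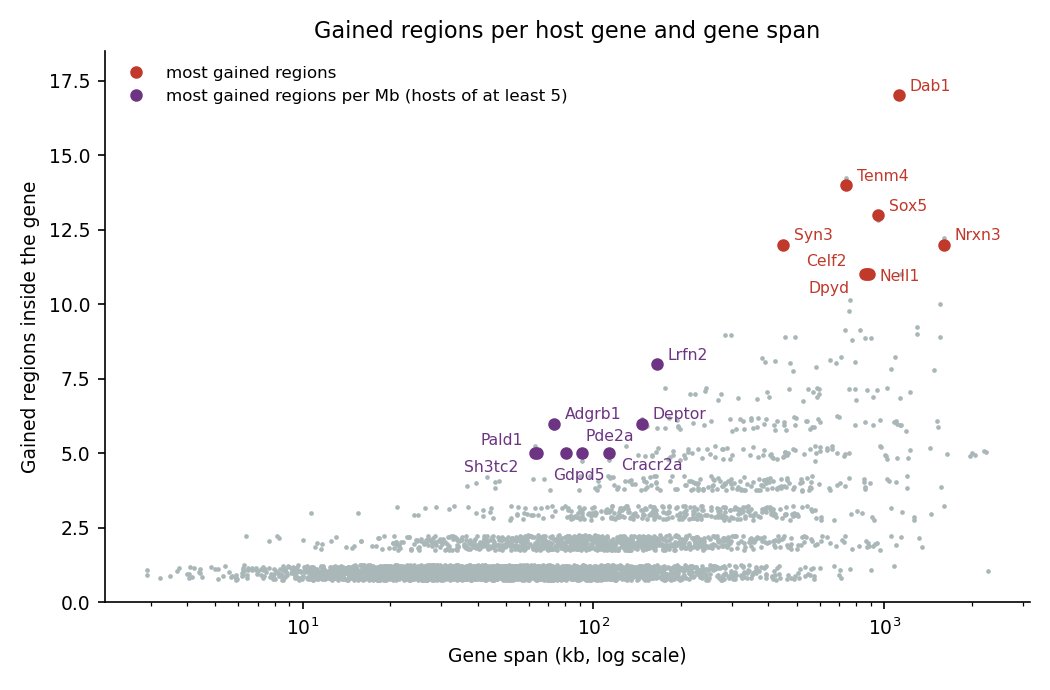
Number of gained regions inside each host gene (vertical axis, points spread slightly up and down) against the gene span in kb (horizontal axis, log scale) for the 4246 host genes. Named in red are the 8 genes with most gained regions, up to 17 in Dab1, and in purple the 8 with most per Mb among hosts of at least 5, which span 166 kb or less.

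The 8 genes with most gained regions were long, with spans of 450.2 to 1612 kb. Dab1, the adaptor of reelin signalling in neuronal migration (chr4:103619500-104744844), held 17 gained and 26 shared regions and 0 lost ones. Its strongest member (chr4:104456278-104456881) had peaks of 555, 604 and 602 bp and folds of 23.1, 25.9 and 23.3 in knockout libraries 1 to 3. Tenm4, a teneurin of synapse and axon formation, held 14 gained regions and 39 shared ones. In both genes the weakest member was marginal, with a lowest percentile of 1.90 in Dab1 and 0.0940 in Tenm4.

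Sox5, a transcription factor gene of neural and cartilage development (chr6:143828425-144782287), held 13 gained regions and 11 shared ones, and its strongest member had folds of 36.3, 34.1 and 25. Syn3, a synapsin of synaptic vesicles, held 12 gained and 13 shared regions, with folds of 30.5, 28.4 and 25.6 at the strongest member (chr10:86079863-86080467). Nrxn3, a presynaptic neurexin, held 12 gained regions and 31 shared ones. Sox5 and the pyrimidine-degrading enzyme gene Dpyd, with 11 gained and 10 shared, had more gained than shared regions inside, as did 971 hosts in all. The RNA-binding protein gene Celf2 held 11 gained regions, 21 shared and 3 lost ones, and Nell1, a secreted factor of bone formation, held 11 gained, 37 shared and 4 lost. With the 50000 strongest peaks of each list Dab1 held 11 gained regions and Nrxn3 held 7, while Tenm4, Sox5 and Celf2 held 2 each.

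Per length the densest hosts were shorter. Adgrb1, an adhesion receptor of phagocytosis and synapses (chr15:74516196-74589465), held 6 gained regions in 73.3 kb, or 81.9 per Mb, with 2 shared and 1 lost. The peaks of its strongest member (chr15:74539758-74540491) were 722, 734 and 705 bp wide in knockout libraries 1 to 3, at percentiles of 97.1, 95.7 and 93.5. Sh3tc2, a gene of endosomal recycling in Schwann cells, held 5 gained regions (79.6 per Mb) and 1 shared. These values stand against 7.25 members per Mb over all autosomal protein-coding genes.

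Pald1 held 5 gained regions (78.3 per Mb), Gdpd5 5 (62.2 per Mb), the cyclic nucleotide phosphodiesterase gene Pde2a 5 (54.9 per Mb) and Lrfn2 8 (48.2 per Mb). Cracr2a, a regulator of store-operated calcium entry, held 5 (44.2 per Mb), and Deptor, an inhibitor of mTOR, held 6 (40.8 per Mb). Apart from the 1 lost region in Adgrb1, these 8 genes held no lost region. With the 50000 strongest peaks Sh3tc2 held 3 gained regions, Lrfn2 held 2, Gdpd5 and Deptor held 0 and the other genes of this group 1 each. Of the long genes without a gained region, Lingo2 spans 1255 kb with 9 shared regions, Nkain2 1208 kb with 4 and Immp2l 932 kb with 15. Nlgn1, a postsynaptic neuroligin, spans 911 kb with 9, and Spag16, a sperm tail gene, 898 kb with 2. Not every long or neuronal gene was thus a host.

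Gene lists were described by how many of their autosomal genes were hosts and by the gained regions per 100 shared regions inside them, which was 21.5 over all autosomal protein-coding genes. The lists differ in span, so the share of hosts stands beside the share among all genes of the same span classes. Below, the same spans means these classes, of which the last, above 300 kb, has no upper limit. No list was tested. With the 50000 strongest peaks of each list the number of hosts was 27 in place of 35 for synaptic adhesion, 12 in place of 15 for β-cell transcription factors and 12 in place of 19 for insulin secretion. It was 0 in place of 4 for dedifferentiation and 0 in place of 5 for macrophages and leukocytes.

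**Figure D4:**
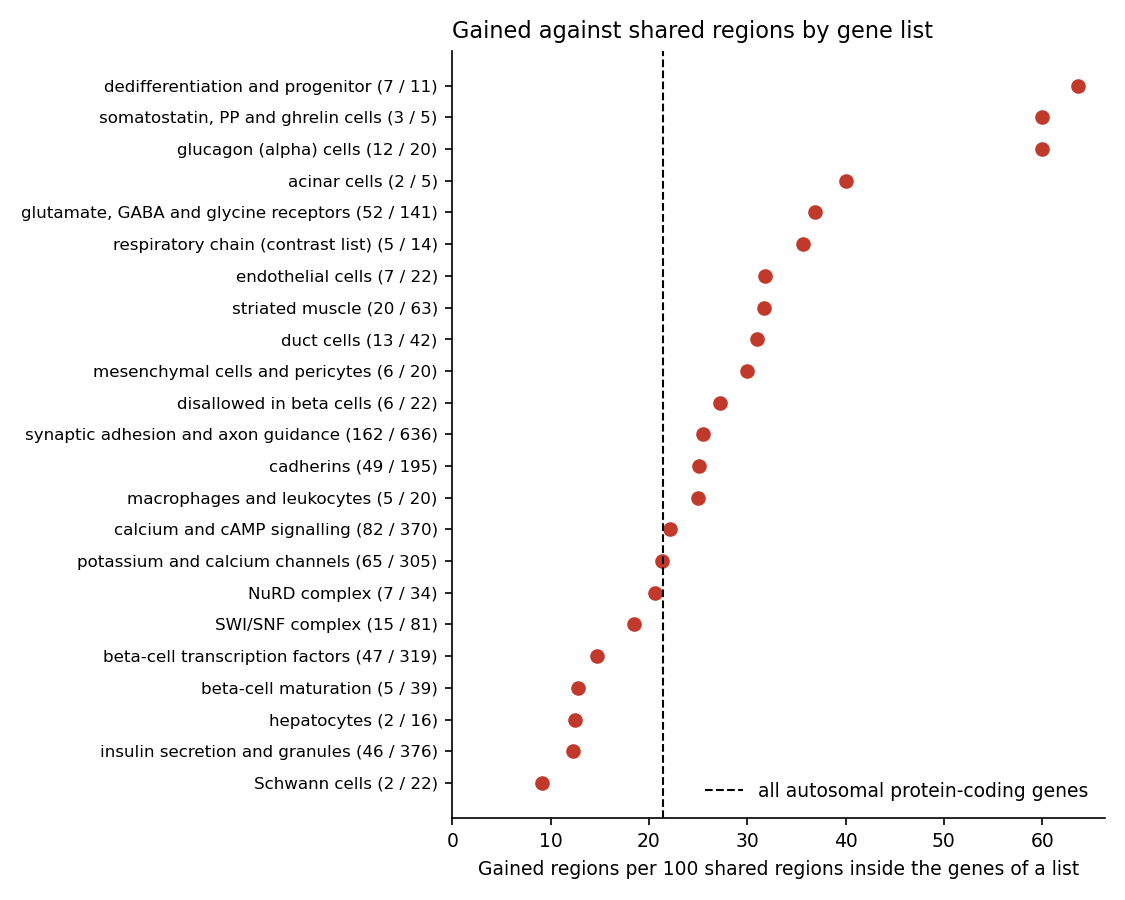
Gained regions per 100 shared regions inside the genes of each list (points), with the numbers of gained and shared regions in brackets, and the value over all autosomal protein-coding genes, 21.5, as a dashed line. Lists of β-cell transcription factors (14.7), insulin secretion (12.2) and β-cell maturation (12.8) lie left of the line, and lists with few shared regions reach 63.6. The ratio also depends on the number of shared regions. Per Mb of span these β-cell lists held 8.25, 8.10 and 6.20 gained regions, against 7.25 over all genes.

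Of the β-cell transcription factor genes, several that define the lineage held no gained region, most of them with no shared region inside either, and the hosts were longer genes. Of 30 genes 15 were hosts (50.0%, against 44.6% at the same spans), with 47 gained, 13 lost and 319 shared regions, or 14.7 gained per 100 shared. Per Mb they held 8.25 gained regions, above the 7.25 of all genes. Pdx1, Nkx6-1, Nkx2-2, Mafa, Neurod1, Pax6, Isl1 and Foxa2 held 0 gained and 0 lost regions. Of these, Pax6 held 7, Nkx2-2 held 6 and Isl1 held 1 shared region inside. Pdx1, Nkx6-1, Mafa, Neurod1 and Foxa2 held 0 shared ones too, so their lack of regions inside is not particular to gained regions. Glis3, a zinc finger factor that activates insulin, held 0 gained, 1 lost and 33 shared. Among the hosts, Foxp1, a forkhead factor, held 7 gained and 34 shared regions. Zbtb20 held 4 gained, 2 lost and 48 shared, and Myt1l, a neuronal and endocrine zinc finger factor, 4 gained, 2 lost and 33 shared. The strongest member in Myt1l (chr12:29727993-29728871) had peaks of 869, 860 and 728 bp in knockout libraries 1 to 3.

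Of 40 genes of insulin secretion and granules, 19 were hosts (47.5%, against 37.5% at the same spans), with 46 gained, 25 lost and 376 shared regions, or 12.2 gained per 100 shared. Per Mb they held 8.10 gained regions, also above the 7.25 of all genes. Both insulin genes, Ins1 and Ins2, held 0 gained and 0 shared regions inside. The potassium channel subunit gene Kcnj11 held 0 gained and 1 shared, and its partner Abcc8 held 2 gained. Ptprn2, a protein of granule membranes, held 8 gained, 2 lost and 70 shared regions. Cadps, which primes granules for release, held 6 gained and 6 lost regions beside 19 shared ones. Cacna1d, a calcium channel of β-cells, held 5 gained, 3 lost and 27 shared, and Rims2, a scaffold of the release site, 3 gained, 3 lost and 15 shared. All 4 of these genes held both gained and lost regions.

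Of 12 maturation genes 3 were hosts (25%, against 18.7% at the same spans), with 5 gained, 4 lost and 39 shared regions. Slc2a2, the glucose transporter of rodent β-cells (chr3:28697903-28728361), held 1 gained region (chr3:28704681-28704966) with peaks of 286, 286 and 276 bp in knockout libraries 1 to 3, and also 1 lost and 4 shared ones. G6pc2, an islet glucose-6-phosphatase gene, held 1 gained region (chr2:69215892-69216189) with peaks of 274, 294 and 298 bp. Esrrg, a nuclear receptor of mature β-cells, held 3 gained, 2 lost and 17 shared regions. The members in Slc2a2 and G6pc2 were of middle rank, at percentiles of 41.5 to 53.1.

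Disallowed genes are those that β-cells keep silent although most tissues use them. Of 20 such genes 6 were hosts (30%, against 24.4% at the same spans), with 1 gained region each, 0 lost and 22 shared over the list, or 27.3 gained per 100 shared. In Acot7, an acyl-CoA thioesterase gene (chr4:152230191-152230911), the member had peaks of 702, 716 and 553 bp and folds of 31.8, 31.6 and 27.7 in knockout libraries 1 to 3, and in Rest, the repressor of neuronal genes (chr5:77275991-77276272), peaks of 282, 200 and 264 bp and folds of 5.81, 3.54 and 4.14. The member in Acot7 stood at percentiles of 89.1, 91.6 and 88.6, and that in Rest at 27.0, 5.04 and 16.0. Of 17 dedifferentiation and progenitor genes 4 were hosts (23.5%, against 14.4%), with 7 gained, 2 lost and 11 shared regions. They were Gli2, a transcription factor of Hedgehog signalling, with 3, the hexokinase gene Hk2 with 2, and the lactate dehydrogenase gene Ldhb and the peptide hormone gene Cck with 1 each.

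Of 12 glucagon cell genes 4 were hosts (33.3%, against 22.4% at the same spans), with 12 gained, 3 lost and 20 shared regions, and 7 of the gained ones lay in Ldb2, a LIM domain-binding cofactor gene. Its strongest member (chr5:44617738-44618332) had peaks of 555, 568 and 583 bp and folds of 25, 25.7 and 20.4 in knockout libraries 1 to 3. Kcnk3, a background potassium channel gene, held 3 and the peptidase gene Dpp4 held 1, which ranked at a percentile of 0.169 in library 3. Gcg, the glucagon gene, held 0. Of 11 somatostatin, PP and ghrelin cell genes 3 were hosts (27.3%, against 11.5%), of which Etv1, Unc5b and Rbp4 held 1 gained region each, and that of Rbp4, the retinol carrier gene (chr19:38119931-38120448), had peaks of 518, 383 and 389 bp.

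Marker genes of other pancreatic, vessel, blood and connective tissue cells were hosts in 2 of 14 acinar, 6 of 14 duct, 5 of 15 endothelial, 5 of 16 macrophage and leukocyte, 6 of 15 mesenchymal and 2 of 9 Schwann cell genes, that is 14.3%, 42.9%, 33.3%, 31.3%, 40.0% and 22.2%. At the same spans the share of hosts among all genes was 10.6%, 26.3%, 36.9%, 27.2%, 26.8% and 19.97%. Markers were found on both sides. Ptprc, Cd74, Itgb2, Ikzf1, Pecam1, Eng, Erg, Col1a1, Prrx1 and Cela2a held 1 gained region each, and Csf1r, Adgre1, Cdh5, Pdgfrb, Krt19, Cpa1, Prss1 and Sox10 held 0. Among the hosts, Bicc1, an RNA-binding protein gene of duct and kidney epithelium, held 5 gained, 2 lost and 12 shared regions, and Pkhd1, the fibrocystin gene, held 4 gained and 11 shared. Fli1, an ETS factor of blood and vessels, held 3 gained regions and 1 shared one. The single members in Col1a1, a collagen gene, had peaks of 678, 694 and 506 bp, and in Cela2a, an elastase gene, of 505, 560 and 536 bp in knockout libraries 1 to 3. The part of other cells in these regions was not tested.

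Neuronal lists hold the longest genes. Of 39 synaptic adhesion and axon guidance genes 35 were hosts (89.7%, against 82.7% at the same spans), with 162 gained, 45 lost and 636 shared regions, or 25.5 gained per 100 shared. Their median span was 1060 kb, and length within the open class above 300 kb was not matched. Per Mb they held 4.00 gained regions, below the 7.25 of all genes. Nrxn3 had 12, Ptprt, a receptor phosphatase of synapse adhesion, 11 gained and 18 shared, Robo2, a Slit receptor of axon guidance, 10 gained and 45 shared, and the synaptic scaffold gene Magi2 8 gained and 26 shared.

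Of 24 glutamate, GABA and glycine receptor genes 15 were hosts (62.5%, against 73.1% at the same spans), with 52 gained, 8 lost and 141 shared regions, or 36.9 gained per 100 shared. Grid1, a delta-type glutamate receptor gene (chr14:34820003-35583387), held 10 gained and 17 shared regions, and its strongest member (chr14:34843595-34844091) had peaks of 462, 487 and 494 bp in knockout libraries 1 to 3. Grik4, a kainate receptor gene, held 6 gained and 10 shared, Gabbr2, a GABA-B receptor gene, 6 and 26, and Grin2a, an NMDA receptor gene, 5 and 4. In Grin2a the strongest member (chr16:9588248-9588844) had folds of 32.3, 31.0 and 25.5. The ratio to shared regions in this list was thus above that of all genes while its share of hosts was below that of genes of like span.

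Of 25 potassium and calcium channel genes 20 were hosts (80.0%, against 79.1% at the same spans), with 65 gained, 15 lost and 305 shared regions, or 21.3 per 100 shared. Kcnma1 held 8 gained regions, and Kcnip1, Kcnip4 and Cacna1e held 6 each. Of 25 calcium and cAMP signalling genes 23 were hosts (92.0%, against 73.7%), with 82 gained, 16 lost and 370 shared regions, or 22.2 per 100 shared. Pde4d, a cAMP phosphodiesterase gene, held 9 gained and 50 shared regions, Camk1d, a calcium-dependent kinase gene and a locus of type 2 diabetes risk in humans, 8 gained and 12 shared, and Plcb1 and Pde1c 5 gained each. Of 20 cadherins 14 were hosts (70.0%, against 72.6%), led by Pcdh15 with 9, Cdh23 with 7 and Cdh13 and Fat3 with 6 each. In these 3 lists the ratio to shared regions was near the 21.5 of all genes.

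Of 19 striated muscle genes 9 were hosts (47.4%, against 41.4% at the same spans), with 20 gained, 4 lost and 63 shared regions. Ryr1, the calcium release channel of skeletal muscle, held 4 gained and 2 shared regions, and its strongest member (chr7:29089760-29090507) had peaks of 715, 748 and 718 bp and folds of 31.8, 31.6 and 28.6 in knockout libraries 1 to 3. Sgcd, a sarcoglycan gene, held 5 gained regions, and Myom1, a protein gene of the sarcomere M-band, held 3. Of 18 hepatocyte genes Hnf4a alone was a host (5.56%, against 17.4%), a nuclear receptor that is also a β-cell factor, with 2 gained, 1 lost and 3 shared regions. The stronger of the 2 (chr2:163564085-163564887) had peaks of 803, 524 and 581 bp.

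Of 14 NuRD genes 5 were hosts (35.7%, against 24.3% at the same spans), with 7 gained, 3 lost and 34 shared regions. Chd5, a neuronal paralogue of Chd4 (chr4:152338646-152390194), held 3 of the 7, or 58.2 per Mb, beside 3 shared ones. Its strongest member (chr4:152340932-152341272) had peaks of 328, 340 and 340 bp and folds of 7.98, 8.64 and 7.45 in knockout libraries 1 to 3. Mta2, Mta3, Gatad2a and the NuRD-associated gene Cdk2ap1 held 1 each, and that of Gatad2a ranked at percentiles of 10.1, 2.17 and 1.16. Chd3 and Chd4 held 0. Of 20 SWI/SNF genes, members of another remodelling complex, 8 were hosts (40.0%, against 35.8%), with Arid1b at 4 gained, 2 lost and 39 shared regions. Of 20 respiratory chain genes, taken as a contrast, 5 were hosts with 1 gained region each (25%, against 13.6%).

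Position was read for 5489 regions with a host that has a strand in the table, along the first such host where there were several. Their median position was 49.1% of the span. In the first 10% of the span lay 7.63% and in the last 10% lay 7.58%, where the 1 kb limit removes sites. Shared regions inside genes gave 49.1%, 8.13% and 7.76%. The distance to the nearest gene end was a median of 23580 bp, with quartiles of 8906 and 63852 bp. The nearest other gained region lay a median of 37223 bp away, and 525 (7.31%) had one within 5 kb.

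**Figure D5:**
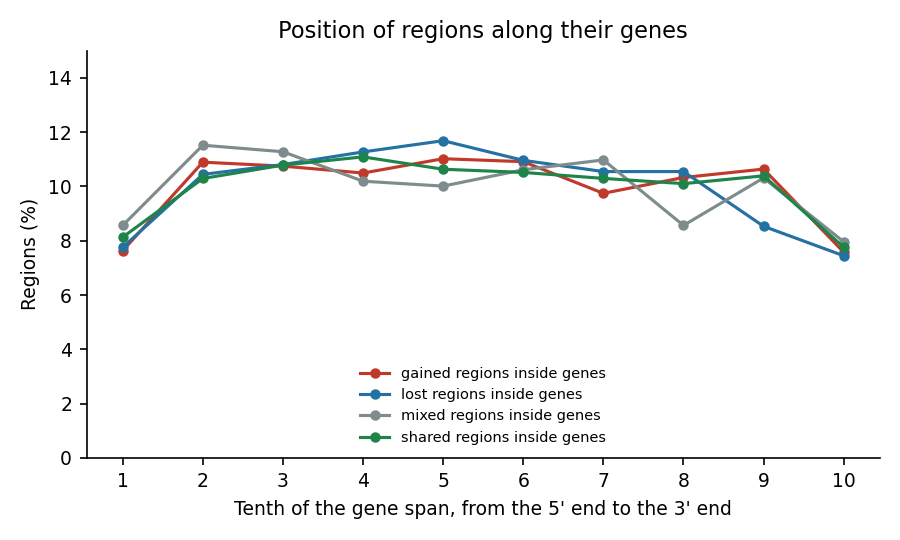
Share of regions in each step of 10% of the host gene span, from the 5′ end to the 3′ end, for gained, lost, mixed and shared regions inside genes, in percent. The 4 lines run close together, with gained regions at 7.63% in the first step and 7.58% in the last.

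The nearest shared region lay a median of 6818 bp from a gained region inside a gene, against 5694 bp for lost, 6519 bp for mixed and 6145 bp for shared regions inside genes, and 9850 bp for gained regions between genes. Within 1 kb of a shared region lay 8.10% of gained, 12.7% of lost, 13.3% of mixed and 10.0% of shared regions inside genes. A knockout peak that joins a shared region widens that region and is not counted as gained. Across chromosomes the density was 6.15 per Mb of gene span on chromosome 16 to 8.46 on chromosome 7, and 18.9 to 24.4 per 100 shared regions, so no autosome stood apart. Of microRNA genes, a gained region overlapped Mir28c inside Samd12, with peaks of 553, 571 and 727 bp in knockout libraries 1 to 3, Mir8094 inside Ddx39b, with peaks of 434, 406 and 251 bp, and Mir1258 inside Aldh7a1, with peaks of 479, 503 and 494 bp.

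Shared regions, which are not members, were compared between genotypes. Both classes come from the same joining of peaks. A knockout peak that touches a shared region adds to its covered length and is not counted as gained, so the measure is not independent of the choice of members. Their covered length, the bases under peaks, was summed per gene, scaled to equal library totals and tested with limma on log2(covered length + 300 bp). The covered length responds to how wide peaks are called and is not a read count. Of 15090 genes tested, 3.27% were higher and 2.33% lower in the knockout (Benjamini-Hochberg adjusted p under 0.05). Of the 4027 host genes tested, 159 (3.95%) were higher and 115 (2.86%) lower, which is near that background, and the median log2 fold change was 0.00 in hosts and in all genes. Without scaling 117 hosts (background 2.69%) were higher and 89 (background 1.84%) lower. With the 50000 strongest peaks 13443 genes and 3705 hosts were tested, and 57 hosts were higher and 75 lower, so more were lower than higher there. The share over all genes is not given for this setting or for the fits below that leave out 1 library. These counts show how the calls move and are not read as a result about hosts. Leaving out 1 library left 35 to 75 higher and 26 to 52 lower hosts, with 35 and 26 without knockout library 1, 36 and 33 without knockout library 2, 70 and 52 without knockout library 3, 70 and 51 without control library 1, 75 and 37 without control library 2 and 55 and 34 without control library 3.

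The 10 hosts below were named for the largest changes among hosts past the adjusted p of 0.05 in this limma fit. Such a choice favours genes whose knockout and control libraries do not overlap, so their separation is a description only. Faim2, an inhibitor of Fas-mediated death in neurons, had a scaled covered length of 1230, 1148 and 1062 bp in knockout libraries 1 to 3 and of 310.3, 291 and 312 bp in control libraries 1 to 3, a log2 fold change of 1.26 ± 0.05 (SE, n = 3 each; limma adjusted p = 0.0013). Slc6a12, a betaine and GABA transporter gene, had 1106, 1094 and 1095 bp in the knockout and 508.5, 401.5 and 582 bp in the control (0.82 ± 0.08). The knockout libraries lay close together at both genes and above every control library. Akr1b8, Malrd1 and Naip1 were higher as well, with log2 fold changes of 0.76 ± 0.13, 0.67 ± 0.05 and 0.65 ± 0.09.

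Ufc1, the conjugating enzyme of the UFM1 pathway, had 874, 914 and 869 bp in the knockout and 1483, 1704 and 1618 bp in the control, a log2 fold change of -0.68 ± 0.05 (SE; limma adjusted p = 0.0030). Aspg, an asparaginase gene, had 366, 359 and 368 bp against 683, 640.4 and 689.6 bp (-0.55 ± 0.05). Lvrn (-0.66 ± 0.13), Ccar2 (-0.58 ± 0.05) and Plekhg6 (-0.56 ± 0.10) were also lower. Without scaling the adjusted p of Lvrn was 0.051 and the other 9 passed. Ufc1 (-0.38), Ccar2 (-0.15) and Plekhg6 (-0.13) did not pass with the 50000 strongest peaks, Aspg did, and the other 6 gave no value. Akr1b8, Naip1, Lvrn and Plekhg6 did not pass in at least 1 fit that left out a library, Plekhg6 with any of the 6 left out. Each of the 10 holds a gained region, so the 5 lower hosts held gained regions beside shared ones of smaller covered length.

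Single shared regions near a gained region were lower more often than higher. Of all 73402 autosomal shared regions 4.37% were higher and 3.07% lower in the knockout (limma on log2(covered length + 100 bp), Benjamini-Hochberg adjusted p under 0.05). Of 2880 shared regions inside genes within 5 kb of a gained region, 80 (2.78%) were higher and 162 (5.63%) lower, with a median log2 fold change of -0.06 on that scale. Of 6927 at 5 to 20 kb, 347 (5.01%) were higher and 213 (3.07%) lower, and of 9790 over 100 kb away, 380 (3.88%) and 304 (3.11%). In the nearest class the share of lower regions was thus above the background and that of higher regions below it. Of its regions within 1 kb, 11 of 531 were higher and 35 lower. A knockout peak that joins or splits from a shared region changes the class of both by construction, and the part of this in the counts was not tested. Without scaling 85 were higher (background 4.58%) and 142 lower (background 2.72%). The fits below that leave out 1 library are given without a background and show only how the counts move. Leaving out 1 library left 22 to 67 higher and 61 to 106 lower, with the fewest of both, 22 and 61, without knockout library 1, 42 and 77 without knockout library 2, 42 and 86 without knockout library 3, 58 and 85 without control library 1, 67 and 106 without control library 2 and 49 and 78 without control library 3.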

How the data were processed

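ATAC-seq peak lists of 3 Chd4KO and 3 Control libraries of sorted β-cells were analysed. Per the names inside the deposited files, the authors called narrow peaks with MACS2 on shifted cutting sites, for each library on its own. Per the submitters' processing notes, the genome build was mm10. Alignment, read filtering and MACS2 settings were not given in the sources used here. For each peak the authors' files give a score, a fold enrichment (a linear ratio), and p and q as −log10 values. In the deposited lists the score is 10 times the −log10 q rounded down in 99.8% of peaks, every −log10 q is at least 1.31 and every peak at least 200 bp wide. These values were used only to describe and rank peaks within a list. Promoter sequences from chromosome 18 are not shown. No read counts are given, so depth is unknown and no counting interval could be made.

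Regions, genes (20665 autosomal of 21887 protein-coding RefSeq genes, GRCm38.p6) and promoter windows were joined in Python 3.11.15 with numpy 2.4.6, pandas 2.3.3 and scipy 1.17.1, and figures drawn with matplotlib 3.10.9. The listed genes, in 23 lists, all matched, 1 through a synonym. Covered length was fitted in R 4.3.3 using limma 3.58.1 and its trend option, on log2(bp + 300) per gene with a mean of at least 300 bp and log2(bp + 100) per region, which understates changes at low values. The procedure was tested on simulated data. The members, lists and tests were chosen with earlier results of these data known.

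Genes were named by rule: the 8 hosts with most regions, the 8 with most per Mb among hosts of at least 5, the 10 regions with the highest lowest percentile, the 5 widest, up to 4 hosts per list, the 5 largest limma changes in each direction, the 5 longest genes with no region, and Chd4. Some genes that the rule names are not reported here. List genes at 0 and other list members were named after their values were seen. Alternatives were a 50% overlap, a −log10 q of at least 5, the 50000 strongest peaks, summits widened by 100 bp, gene ends of 0.5 and 5 kb, other pseudocounts, filters and scaling, a replicate block, and each library left out.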

Additional observations from a re-analysis of the deposited data

Results flagged for a closer look

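The X chromosome was outside the rule, which kept autosomes, and so outside every comparison above. By the same rule otherwise, 139 regions inside genes on X were called in all 3 knockout lists and in no control list. The control lists hold none at these sites by construction. On X 40 regions inside genes were lost and 648 were shared by all 6 libraries. These are counts with no test.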

How the results depend on the processing

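The count of 7181 regions moved to 7459 with a −log10 q of at least 5, 8264 with a peak over 50% of the region, 7664 with summits, and 7271 and 6266 with gene ends of 0.5 and 5 kb. With the 50000 strongest peaks of each list there were 2544 regions in 1929 host genes, 1.08 gained per lost. In that setting 57 hosts were higher and 75 lower, where the main fit gave 159 and 115. Of 39 tallies per named gene or list, 30 moved with that setting, 4 with gene ends of 5 kb and 2 without knockout library 3. Leaving out 1 library gave 7683 to 9248 regions in 4421 to 5052 hosts, all including the 7181, and 2765 to 3604 lost regions. The regions were not joined anew for this, so dropping a list could only relax the rule. Inclusion of the 7181 and counts no lower than the main ones thus followed by construction. They do not test how stable the members are. The limma fits without 1 library left 35 to 75 higher and 26 to 52 lower hosts. Near gained regions they left 22 to 67 higher and 61 to 106 lower shared regions. The shares over all genes or regions are not given beside these counts or those with the 50000 strongest peaks. Keeping regions with a mean covered length of at least 500 bp left 32 higher ones within 5 kb. The lower ones, the number tested and the share over all regions are not given for that filter. The count shows only that the calls moved. The causes were not tested beyond what fewer peaks, libraries or regions bring by construction. Knockout and control libraries share the numbers 1 to 3 in their titles. The deviations of same-numbered libraries had r = 0.03, 0.06 and -0.02, within the -0.11 to 0.07 of differently numbered ones. No pairing by number was thus seen, and a shared batch was not tested. A limma fit with the replicate block gave 0 adjusted calls for genes and 0 for regions, including 0 higher and 0 lower hosts, where an unadjusted p under 0.05 was reached by 3251 genes and 17199 regions. The split of the nearest class at 1 kb was chosen after seeing the data.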
